A study of Mus musculus with 14 samples.

Results

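The genes described here are markers of Kupffer cells and other macrophages: Clec4f, Vsig4, Timd4, Cd5l, Marco, Adgre1, Cd68, Ctss, Lyz2 and Csf1r. They were found on the arrays by matching the RefSeq accession of each probe to a gene symbol. Of the 10 genes, 9 were matched, by 12 probes, and all 9 entered the tests among 21976 features, 13773 of which had a symbol. No probe was matched to Cd68, the endosomal glycoprotein used as a general macrophage marker, and it was not analysed here. Every one of the 9 measured markers was well above background in the liver channel on 14 of 14 arrays.

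The livers came from 14 female B6C3F1 mice, bought at 5 to 6 weeks of age. A group of 4 controls received corn oil by gavage, and furan, a liver toxicant and food contaminant, was given by gavage to 5 mice at 1 mg/kg body weight and 5 mice at 8 mg/kg, in each case for 21 days. All 14 mice, controls included, also drank BrdU, a thymidine analogue taken up during DNA synthesis, for the last 5 days, so no comparison here is with a liver free of BrdU. Livers were taken 4 hours after the last gavage. Whole-liver RNA carried Cy5 and a universal mouse reference RNA carried Cy3 on every array, with no dye swap. A value is therefore the log2 ratio of liver to reference for a given probe. It compares mice with each other, and it does not compare the abundance of different genes.

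Kupffer cells are the resident macrophages of the liver sinusoids. They take up particles, microbes, aged red cells and modified lipoproteins from portal blood, and they carry Clec4f, which in the mouse is largely restricted to them, and scavenging receptors such as Vsig4, Timd4 and Marco, which some other resident macrophages also carry. Macrophages recruited from blood monocytes share general genes with them, among them Adgre1, Csf1r, Ctss and Lyz2. When Kupffer cells die, recruited cells can fill the niche and gain the resident genes over time. The resident markers and the general markers therefore need not move together. In whole liver, a change in the number of macrophages and a change in the RNA of a gene per macrophage cannot be told apart.

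Promoter sequence is shown for 4 of the markers, because Ctss and Lyz2 on the one hand, and the resident markers Clec4f and Cd5l on the other, fall in different sets by how they varied between mice, as described below. Sequences are from RefSeq (mouse assembly GRCm38.p6), 5' to 3' on the strand of the gene, from 250 bases before to 30 bases after the annotated start, 280 bases in all. Capitals mark the letters AGGAAG or, on the other strand, CTTCCT, the core recognised by PU.1, the transcription factor of the macrophage lineage. Positions of the first base of a match are counted from the start, with negative numbers before it. The window of Ctss lies at chr3:95526536-95526815 (plus strand), Lyz2 at chr10:117282243-117282522 (minus strand), Clec4f at chr6:83656087-83656366 (minus strand) and Cd5l at chr3:87357631-87357910 (plus strand).
Ctss: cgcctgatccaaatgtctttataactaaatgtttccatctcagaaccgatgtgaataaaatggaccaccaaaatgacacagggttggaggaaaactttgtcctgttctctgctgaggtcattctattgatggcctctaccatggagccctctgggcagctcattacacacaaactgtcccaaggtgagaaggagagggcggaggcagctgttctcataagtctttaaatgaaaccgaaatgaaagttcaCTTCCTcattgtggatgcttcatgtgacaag
Lyz2: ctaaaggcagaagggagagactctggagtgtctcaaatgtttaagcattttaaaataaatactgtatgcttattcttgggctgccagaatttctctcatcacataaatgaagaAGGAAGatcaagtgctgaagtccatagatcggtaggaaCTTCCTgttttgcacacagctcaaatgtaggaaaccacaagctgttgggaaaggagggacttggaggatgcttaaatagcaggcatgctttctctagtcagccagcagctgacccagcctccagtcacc
Clec4f: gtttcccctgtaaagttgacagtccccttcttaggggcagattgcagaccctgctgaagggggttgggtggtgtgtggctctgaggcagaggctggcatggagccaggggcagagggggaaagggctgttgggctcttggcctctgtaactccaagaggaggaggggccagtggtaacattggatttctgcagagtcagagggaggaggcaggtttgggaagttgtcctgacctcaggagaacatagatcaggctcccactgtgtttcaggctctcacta
Cd5l: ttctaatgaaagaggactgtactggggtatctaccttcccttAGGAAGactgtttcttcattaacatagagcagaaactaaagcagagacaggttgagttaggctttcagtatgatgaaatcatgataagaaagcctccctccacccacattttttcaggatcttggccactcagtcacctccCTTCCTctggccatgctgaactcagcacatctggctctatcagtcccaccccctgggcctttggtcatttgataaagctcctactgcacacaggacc

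The core was found in the windows of 4 of the 7 measured markers whose promoter entry was used. Ctss had 1 match, at -1 on the minus strand relative to the gene. Lyz2 had matches at -137 and -99, Cd5l at -208 and -67, and Marco at -145 and -81. None was found in the windows of Clec4f, Vsig4 and Timd4. Among all 27025 promoters of the same length, 8789 (32.5%) held the core on either strand, so a match in a window is common, and it is a description of letters and not of binding. Cd5l held the core and Clec4f, which varied with Cd5l between mice, did not. No promoter entry was used for Adgre1 and Csf1r. The search of the markers left out entries on a chromosome that the count over all promoters kept. The windows searched therefore do not cover every measured marker, and 4 of 7 is not a share of the markers.

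The arrays lay on 5 slides, numbered here from 1 to 5. Slides 1 to 4 each held a control, a 1 mg/kg mouse and an 8 mg/kg mouse, and slide 5 held only a 1 mg/kg and an 8 mg/kg mouse. Slide 3 stood apart for these genes. Its 3 mice were higher on average than the other 11 for all 9 markers, by 1.00 (log2) for Clec4f, 0.89 for Cd5l, 0.82 for Vsig4, 0.74 for Marco and 0.68 for Timd4. The difference was smaller for Ctss (0.47), Csf1r (0.46) and Adgre1 (0.37), and Lyz2 differed by only 0.006. All 3 doses on slide 3 shared the shift: Clec4f read 7.07, 7.10 and 6.93 at 0, 1 and 8 mg/kg there, while no other mouse exceeded 6.33. The shift was general among probes with a large liver-to-reference ratio. Of the 664 features with a mean log2 ratio above 4 on the other slides, 98% were higher on slide 3. Their median shift was 0.78, against a median of 0.05 over all 21976 features. Clec4f, Cd5l, Vsig4 and Marco lay in that range. A mean ratio from 0 to 2 on the other slides was the range of Timd4, Adgre1, Csf1r and Lyz2. Features in that range had a median shift of 0.0841. Timd4 (0.68), Adgre1 and Csf1r shifted by more than that median, and Lyz2 by less. Ctss, with a negative mean ratio, also shifted by more than the median of the range next below 0, which was -0.00459. What underlies the shift was not tested. Slide accounted for 88.9% of the variance of Clec4f, 85.6% of Cd5l, 84.4% of Timd4 and 82.8% of Vsig4, against a median of 42.4% over all features and 11.3% for Lyz2. Every comparison below was therefore fitted with the slide as a block, with values without slide 3 given where a result rests on it.

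**Figure D1:**
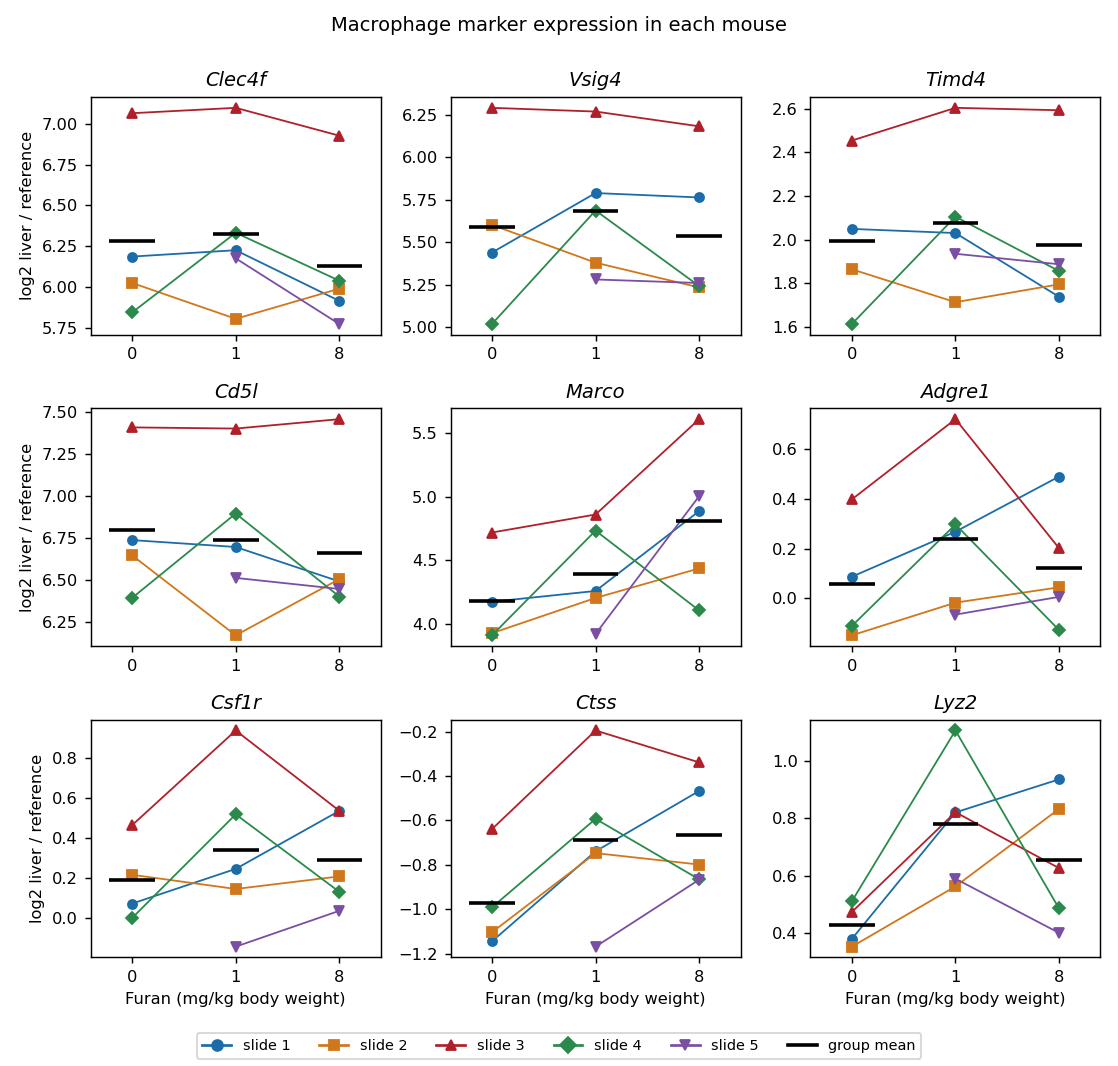
Log2 ratio of liver to reference (vertical axes) for the 9 measured markers in each of 14 mice, by furan dose in mg/kg body weight (horizontal axes); symbols joined by a line are mice on the same slide, and black bars are group means (n = 4, 5 and 5). Slide 3 is the highest line for Clec4f, Vsig4, Timd4 and Cd5l at every dose, and for Ctss the 1 mg/kg mouse lies above the control on all 4 slides that hold a control.

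The first question was whether the higher dose altered the markers. At 8 mg/kg, 1 of the 9 markers, Ctss, passed the test against control (limma with slide as a block, Benjamini-Hochberg adjusted p under 0.05 over all 21976 features). Over all features 898 passed, or 4.09%, 600 of them higher and 298 lower. The split moved with the values used: 238 of 290 were higher with the scanner's processed signals and 694 of 1329 with the liver channel alone. Ctss was 1.31-fold higher and just inside the threshold, with an adjusted p of 0.0481. Marco had a larger estimate, 1.58-fold, and missed the threshold. The resident markers Clec4f, Vsig4, Timd4 and Cd5l were within 0.09 of the controls on the log2 scale. The median difference of the 9 markers was 0.12, beside 0.0019 over all features, and 7 of 9 estimates were above 0, beside 50.5% of all features. An unadjusted p under 0.05 was reached by 3 of 9 markers, beside 20.3% of all features. Without 8 mg/kg replicate 2, the mouse of slide 3, the median of the markers was 0.221, and without slide 3 it was 0.208; it was 0.0665 with no slide block and 0.0692 with the labels' replicate number as a block in place of the slide.

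Ctss encodes cathepsin S, the lysosomal cysteine protease that trims the invariant chain of MHC class II in antigen-presenting cells. The controls read -1.145, -1.10, -0.64 and -0.99 on slides 1 to 4. At 1 mg/kg the ratios were -0.74, -0.75, -0.19, -0.59 and -1.17 on slides 1 to 5, and at 8 mg/kg they were -0.47, -0.80, -0.34, -0.87 and -0.87. The groups overlapped when slides were ignored, because the slide 3 control was high and the 1 mg/kg mouse of slide 5 was low. Within slides the treated mouse was above the control in every case. The 8 mg/kg mouse exceeded the control by 0.68, 0.305, 0.30 and 0.13 on slides 1 to 4, and the fitted difference was 0.39 ± 0.10 (SE; 95% confidence interval 0.17 to 0.61). At 1 mg/kg the difference within slides was nearly constant, at 0.41, 0.36, 0.44 and 0.40, and the fitted difference was 0.37 ± 0.10 (95% confidence interval 0.15 to 0.58). That estimate had an unadjusted p of 0.00283 and an adjusted p of 0.702 in limma, at a dose where no feature passed. The doses did not differ from each other for Ctss beyond the spread (0.02 ± 0.09, 8 against 1 mg/kg, 95% confidence interval -0.18 to 0.22).

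The call of Ctss at 8 mg/kg depended on the processing. Its estimate stayed above 0 in all 28 alternative settings, between 0.30 and 0.47, but it passed in only 5 of them, with limma adjusted p-values from 0.0268 to 0.614. Among those 5 is a further scaling of average intensities between arrays (Aquantile), which leaves the ratios unchanged and so repeats the main fit. Without slide 3 the difference was 0.41 (limma adjusted p = 0.103). Of the 14 fits that left out an array, only that without 8 mg/kg replicate 4 kept the call. Adjusting over all 28867 probes, with no choice of a probe per gene, gave 0.0512.

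Marco encodes a class A scavenger receptor that binds bacteria and particles and is carried by a part of the Kupffer cells. The controls read 4.17, 3.925, 4.72 and 3.91 on slides 1 to 4. The 1 mg/kg mice read 4.26, 4.20, 4.86, 4.73 and 3.92 on slides 1 to 5, and the 8 mg/kg mice 4.89, 4.44, 5.61, 4.10 and 5.01. The 8 mg/kg mice were the more widely spread (SD 0.58, against 0.38 in controls), and the mouse on slide 4 lay at the control level. Differences from control at 8 mg/kg were 0.72, 0.51, 0.89 and 0.20 on slides 1 to 4, and the fitted difference was 0.66 ± 0.19 (95% confidence interval 0.27 to 1.06; limma adjusted p = 0.0614). Against 1 mg/kg the difference was 0.41 ± 0.17 (adjusted p = 0.175), higher on 4 of 5 slides, with a difference of -0.63 on slide 4. That slide held the second highest of the 1 mg/kg mice and the lowest of the 8 mg/kg mice. Leaving out the 8 mg/kg mouse of slide 4 (replicate 4) or the 1 mg/kg mouse of that slide (replicate 5) brought Marco past the threshold in both comparisons, as did the use of the liver channel alone. Across the 28 alternatives its difference from control at 8 mg/kg ranged from 0.37 to 0.88 and passed in 3. Without slide 3 it was 0.60 (adjusted p = 0.18). Ctss and Marco were the only markers higher than control on all 4 slides at 8 mg/kg, 2 of 9 beside 14.4% of all features.

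None of the other resident markers passed at 8 mg/kg. Clec4f encodes a galactose-binding C-type lectin found in the mouse mainly on Kupffer cells. Its ratios were 6.19, 6.02, 7.07 and 5.84 in the controls of slides 1 to 4. They were 6.225, 5.80, 7.10, 6.33 and 6.175 at 1 mg/kg and 5.91, 5.99, 6.93, 6.04 and 5.77 at 8 mg/kg, on slides 1 to 5. The groups overlapped throughout, and the difference at 8 mg/kg was -0.09 ± 0.11, with a 95% confidence interval of -0.32 to 0.15. A fall of Clec4f by more than 0.32, or a rise by more than 0.15, lay outside that interval. Against 1 mg/kg the 8 mg/kg mice were lower on 4 of 5 slides, with a fitted difference of -0.20 ± 0.10 that did not pass (limma adjusted p = 0.273).

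Vsig4 encodes the complement receptor CRIg, which captures opsonised particles in the sinusoids. The controls read 5.44, 5.602, 6.29 and 5.02 on slides 1 to 4, the 1 mg/kg mice 5.79, 5.38, 6.27, 5.69 and 5.28 on slides 1 to 5, and the 8 mg/kg mice 5.76, 5.23, 6.18, 5.24 and 5.26. No group stood apart. The difference at 8 mg/kg was 0.03 ± 0.12 (95% confidence interval -0.23 to 0.30). Vsig4 was the only marker lower at 8 than at 1 mg/kg on all 5 slides, 1 of 9 beside 10.3% of all features, although by only -0.02 on slide 5. The fitted difference, -0.15 ± 0.11, did not pass (limma adjusted p = 0.503).

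Timd4 encodes TIM-4, a phosphatidylserine receptor for the uptake of apoptotic cells, and marks long-established resident macrophages. The controls read 2.05, 1.86, 2.45 and 1.61 on slides 1 to 4, the 1 mg/kg mice 2.03, 1.71, 2.60, 2.105 and 1.935 on slides 1 to 5, and the 8 mg/kg mice 1.74, 1.795, 2.59, 1.86 and 1.89. The difference at 8 mg/kg, 0.01 ± 0.10, had a 95% confidence interval of -0.22 to 0.23. Its sign turned to -0.03 without slide 3, still close to 0. Cd5l encodes AIM, a secreted scavenger protein that keeps macrophages alive. Its ratios were 6.735, 6.64, 7.41 and 6.39 in the controls, 6.69, 6.17, 7.40, 6.89 and 6.51 at 1 mg/kg, and 6.49, 6.50, 7.455, 6.40 and 6.44 at 8 mg/kg, in the same slide order. The groups overlapped, and the difference at 8 mg/kg was -0.08 ± 0.12 (95% confidence interval -0.35 to 0.18). For both genes slide 3 set the highest value of each group.

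Among the general macrophage markers, Lyz2 encodes lysozyme M, which cleaves bacterial cell walls and is abundant in macrophages, monocytes and neutrophils. The controls lay close together, at 0.38, 0.35, 0.47 and 0.51 on slides 1 to 4 (SD 0.08). All 5 mice at 1 mg/kg were above all 4 controls, at 0.82, 0.56, 0.82, 1.11 and 0.59 on slides 1 to 5. How many of all features separate in this way was not counted. The 8 mg/kg mice read 0.94, 0.83, 0.63, 0.49 and 0.40, and with slides ignored those of slides 4 and 5 lay within the range of the controls. Slide 5 held no control. With the slide effect removed, the slide 4 mouse (0.39) lay within the controls (0.27 to 0.44) and the slide 5 mouse (0.62) above them. The fitted differences from control were 0.41 ± 0.12 at 1 mg/kg (95% confidence interval 0.16 to 0.66, unadjusted p = 0.00366) and 0.28 ± 0.12 at 8 mg/kg (95% confidence interval 0.03 to 0.53, unadjusted p = 0.0296). Neither passed in limma after adjustment (0.702 and 0.191). Lyz1, a close paralog whose transcript may hybridise with the same probe, read 0.33 ± 0.13 and 0.35 ± 0.13 above control at 1 and 8 mg/kg, so the lysozymes cannot be told apart with certainty.

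Csf1r encodes the receptor for CSF1 and IL-34 on which macrophages depend for survival. The controls read 0.07, 0.22, 0.46 and 0.0025 on slides 1 to 4, the 1 mg/kg mice 0.25, 0.15, 0.93, 0.52 and -0.14 on slides 1 to 5, and the 8 mg/kg mice 0.535, 0.21, 0.54, 0.13 and 0.04. The groups overlapped. Its differences were 0.24 ± 0.12 at 1 mg/kg (limma adjusted p = 0.724) and 0.19 ± 0.12 at 8 mg/kg (adjusted p = 0.386). The other probes of Csf1r gave 0.28 and 0.14 at 1 mg/kg and 0.0048 and 0.09 at 8 mg/kg, so the estimates of all 3 probes were above 0 at both doses. Adgre1 encodes an adhesion G protein-coupled receptor that is the classical surface marker of mouse macrophages. The controls read 0.09, -0.15, 0.40 and -0.11 on slides 1 to 4. The 1 mg/kg mice read 0.27, -0.02, 0.72, 0.30 and -0.06 on slides 1 to 5, and the 8 mg/kg mice 0.49, 0.04, 0.20, -0.13 and 0.01. The 1 mg/kg mouse was above the control on all 4 slides, with a fitted difference of 0.24 ± 0.11 (adjusted p = 0.724). At 8 mg/kg it was above on 2 of 4, with 0.12 ± 0.11 (adjusted p = 0.602), and the second probe of Adgre1 gave 0.25 and 0.04 at the 2 doses.

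**Figure D2:**
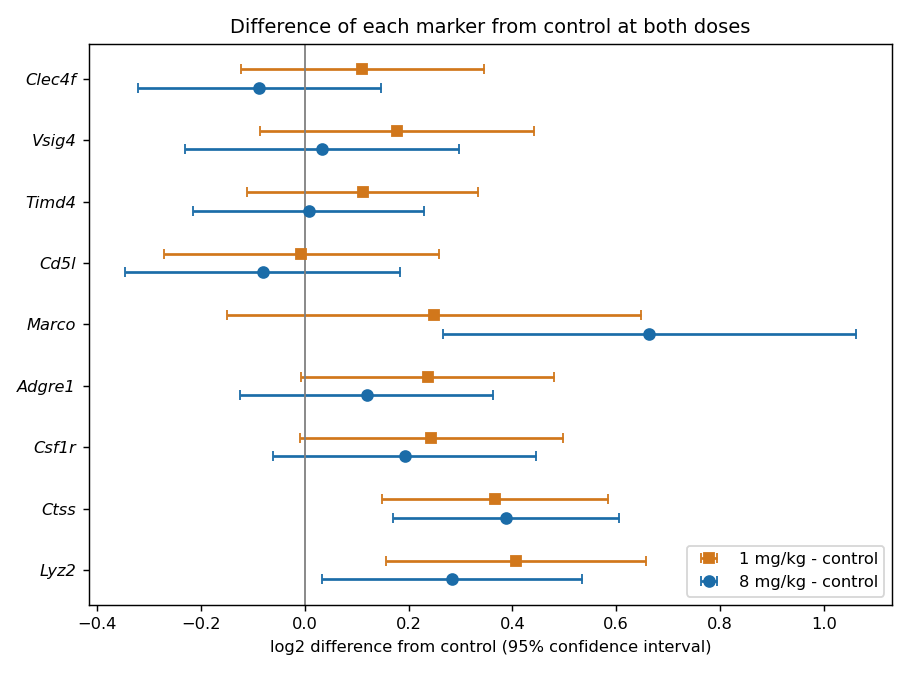
Fitted log2 difference from control (horizontal axis) for each of the 9 markers at 1 mg/kg (orange squares) and 8 mg/kg (blue circles), with slide as a block; bars are 95% confidence intervals. The intervals of Ctss and Lyz2 lie above 0 at both doses and that of Marco lies above 0 at 8 mg/kg, while those of Clec4f, Vsig4, Timd4 and Cd5l include 0 at both.

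At the lower dose, none of the 9 markers passed against control in limma, and no feature of the 21976 did (0%; smallest adjusted p 0.0589). An unadjusted p under 0.05 was reached by 2 of 9 markers, Ctss and Lyz2, and by 1516 features, or 6.9%. Of the 9 estimates, 8 were above 0, all but Cd5l (-0.01 ± 0.12), beside 60.4% of all features. Their median was 0.24, beside 0.03 over all features. Adgre1, Ctss, Lyz2 and Marco were higher than control on all 4 slides, 4 of 9 beside 10.1% of all features. Without the 1 mg/kg mouse of slide 4 (replicate 5) the median of the markers was 0.0651. The comparisons of both doses share the same 4 control mice. The remaining estimates at 1 mg/kg were 0.25 ± 0.19 for Marco, 0.18 ± 0.12 for Vsig4 and 0.11 for both Timd4 (SE 0.10) and Clec4f (SE 0.11). These estimates were not stable. Marco was at 0.0171 without the 1 mg/kg mouse of slide 4 (replicate 5). Without control replicate 4, Vsig4 was at 0.0645, Timd4 at 0.00858 and Clec4f at 0.000943. With the scanner's processed signals Vsig4 was at -0.368 and Clec4f at -0.0128, and with the liver channel alone Timd4 was at -0.0651. None of the 4 passed in any of the 28 alternatives.

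Between the doses, none of the 9 markers passed, beside 5.28% of all features (1161, of which 529 were higher and 632 lower at 8 mg/kg). With the scanner's processed signals 218 of 263 were higher. Only Marco had an unadjusted p under 0.05 in limma (its adjusted p was 0.175), while 21.4% of all features did. The median difference of the 9 markers between the doses was -0.10, beside -0.02 over all features, and 2 of 9 estimates, Marco and Ctss, were above 0, beside 43.6%. Without the 1 mg/kg mouse or the 8 mg/kg mouse of slide 4 the median was -0.0367 or -0.0325, and without the 1 mg/kg mouse of slide 2 (replicate 3) it was -0.161.

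The markers fell into sets in how they varied between mice within slides. After each slide's mean was removed, Clec4f, Timd4 and Cd5l were correlated with one another over the 14 arrays, with Pearson r of 0.76 to 0.81. Adgre1, Csf1r, Ctss and Lyz2 formed the other set, with r of 0.74 to 0.89, the highest being between Adgre1 and Csf1r. Of the 12 pairs between the sets, the 3 with Ctss were the lowest, with r of 0.01 with Timd4, -0.13 with Cd5l and -0.19 with Clec4f. The other 9 pairs ran from 0.13 (Adgre1 and Timd4) to 0.33 (Lyz2 and Clec4f). Marco went with Ctss (r = 0.72) rather than with Clec4f (r = -0.31). Vsig4 lay between, with r of 0.50 to 0.65 with Clec4f, Timd4, Cd5l, Lyz2, Adgre1 and Csf1r. Its r was lower with Ctss (0.40) and Marco (0.25). These correlations are given as a description. They share arrays, slides and the dose groups.

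**Figure D3:**
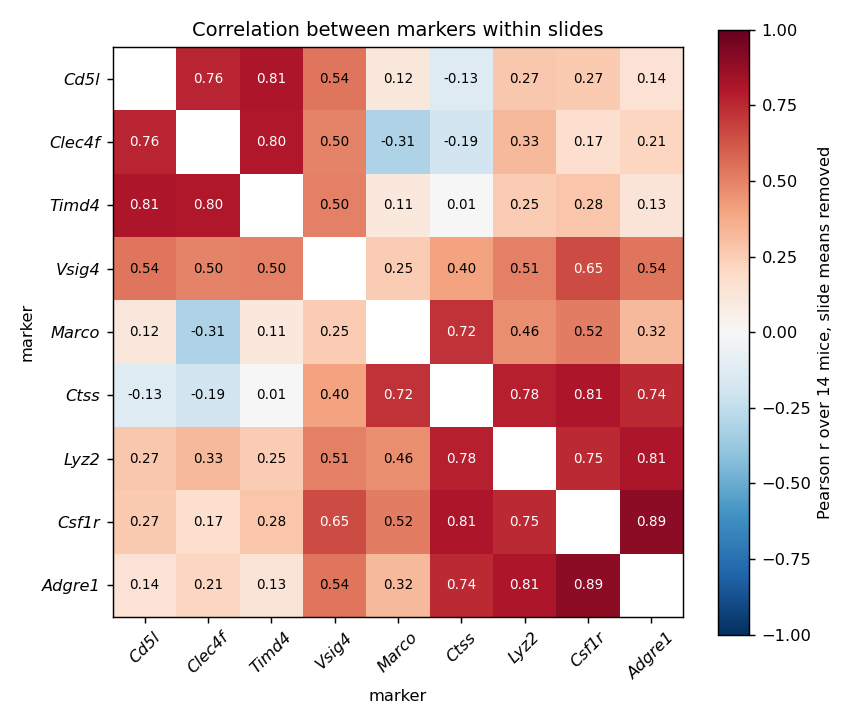
Pearson correlation between pairs of markers over 14 mice after slide means were removed; the colour scale runs from -1 (blue) to 1 (red) and each cell prints r. Clec4f, Timd4 and Cd5l form a block at the upper left (0.76 to 0.81) and Ctss, Lyz2, Csf1r and Adgre1 a block at the lower right (0.74 to 0.89), with Vsig4 and Marco in between.

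Among 13755 named features, those closest over the 14 arrays to the mean of Clec4f, Vsig4, Timd4, Cd5l and Marco were Sh3yl1 (r = 0.95), Scimp (0.94), Id4 (0.93), Pilra (0.92), Myh11 (0.92) and Itga8 (0.91), after slide means were removed. None of these 6 passed at 8 mg/kg in limma (adjusted p of 0.534 to 0.936). Those closest to Ctss were Pitpna (0.93), Vkorc1l1 (0.92), Sox17 (0.91), H2az1 (0.90), Gng5 (0.89) and Eif4ebp1 (0.89). Of these, H2az1, a histone variant, was 0.49 higher than control at 8 mg/kg (limma adjusted p = 0.0206), and Eif4ebp1, a repressor of translation initiation, was 0.31 higher (adjusted p = 0.0405). The call of H2az1 was kept in 20 of 28 alternatives and that of Eif4ebp1 in 8. Without slide 3 the differences were 0.56 (limma adjusted p = 0.0344) and 0.35 (adjusted p = 0.064). These 12 genes were picked for their r, which carries no test. Dose differences were left in r, and 70.6% of the within-slide variance of Ctss lay between dose groups. A gene picked for a high r to Ctss therefore tends to differ from control as Ctss does. The calls of H2az1 and Eif4ebp1 follow in part from that choice and are not a separate result.

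Among other genes known from Kupffer cells, Hmox1 alone passed at 8 mg/kg. Of 21 listed, 19 were tested: 1 rose, none fell and 18 did not pass, while 4.09% of all features passed. The median difference was 0.03. Hmox1, which encodes the haem oxygenase with which Kupffer cells break down the haem of red cells and which hepatocytes also induce under oxidative stress, was 1.09 ± 0.18 higher (2.13-fold, limma adjusted p = 0.00447, higher on 4 of 4 slides). Spic, the transcription factor of red-cell-recycling macrophages, was 0.32 ± 0.09 higher and missed the threshold (adjusted p = 0.0621). At 1 mg/kg none of the 19 passed and 16 were above 0, beside 60.4% of all features above 0, with a median of 0.16. C1qb, a chain of complement C1q made by macrophages, was 0.26 above control (limma adjusted p = 0.702). Between the doses 2 of the 19 rose, Hmox1 (1.02 ± 0.16) and Id3 (0.38 ± 0.10), a regulator needed for Kupffer cell development. Another 2 fell, namely Hpgd, which inactivates prostaglandins (-0.67 ± 0.17), and Fcna, the soluble lectin ficolin A (-0.31 ± 0.08). Over all features 5.28% passed between the doses, and counts in lists this short are given as a description. Hmox1 kept its call against control in 27 of 28 alternatives and between the doses in all 28. The calls of Id3, Hpgd and Fcna were kept in 14, 14 and 6 of 28. Without slide 3, Id3 (0.31, limma adjusted p = 0.113) and Fcna (-0.32, adjusted p = 0.0768) did not pass.

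Among other macrophage and phagocyte genes, 29 of 30 listed were tested. At 8 mg/kg 2 rose, none fell and 27 did not pass, while 4.09% of all features passed. The median was 0.10. Cd14, the co-receptor for bacterial lipopolysaccharide, was 0.44 ± 0.10 higher (limma adjusted p = 0.0322). Lilrb4a, an inhibitory receptor of myeloid cells, was 0.59 ± 0.13 higher (adjusted p = 0.0275). The calls were kept in 17 and 14 of 28 alternatives, and without slide 3 the differences were 0.43 (adjusted p = 0.0825) and 0.485 (adjusted p = 0.122). At 1 mg/kg none of the 29 passed; the smallest p was that of Adgre4, of the same receptor family as Adgre1 (0.42 ± 0.13, adjusted p = 0.702), and the median was 0.07. None of the 29 passed between the doses, beside 5.28% of all features.

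No gene among the lysosomal proteases and membrane proteins, the companions of Ctss in the lysosome, passed against control at either dose. That does not set Ctss apart from them, because its own call was just inside the threshold and was kept in 5 of 28 alternatives. Of 19 tested, 17 were above 0 at 1 mg/kg, beside 60.4% of all features, with a median of 0.15. At 8 mg/kg 13 of 19 were above 0, beside 50.5% of all features, with a median of 0.11. Lamp1, a lysosomal membrane glycoprotein, had the smallest p at 1 mg/kg (0.28 ± 0.08, limma adjusted p = 0.702). Between the doses 17 did not pass, beside 5.28% of all features that did. The 2 that passed fell: Lamp2, another such glycoprotein (-0.37 ± 0.09), and Ctsh, encoding cathepsin H (-0.28 ± 0.07). Those calls were kept in 15 and 6 of 28 alternatives, and without slide 3 Ctsh did not pass (-0.25, limma adjusted p = 0.121).

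Genes of lipid-associated macrophages gave 1 call of 10 at 8 mg/kg, beside 4.09% of all features. Lpl, the lipoprotein lipase, was 0.96 ± 0.19 higher than control (limma adjusted p = 0.0148) and 0.67 ± 0.18 higher than at 1 mg/kg (adjusted p = 0.0428). Without slide 3 the difference from control was 0.695, with an adjusted p of 0.0615, and that between the doses was 0.515, with 0.0829. The median of the list at 8 mg/kg was 0.03, and 9 of 10 did not pass. None of the 10 passed at 1 mg/kg (median 0.15).

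In the list of activation genes and chemokines, 18 of 24 were tested. At 8 mg/kg 1 rose and 1 fell, while 4.09% of all features passed. Cxcl10, an interferon-induced chemokine made by several liver cell types, was 1.45 ± 0.19 higher (2.735-fold, limma adjusted p = 0.000956), and Il18, a cytokine processed by inflammasomes, was -0.43 ± 0.09 against control (adjusted p = 0.0215). Both also passed against 1 mg/kg (1.31 ± 0.17 and -0.48 ± 0.08). Cxcl10 kept both calls in all 28 alternatives, while Il18 lost that against control without slide 3 (-0.36, limma adjusted p = 0.0924). The other 16 did not pass, and the median of the list was 0.06. At 1 mg/kg none passed; Cxcl16, a chemokine and scavenger receptor, had the smallest p (0.33 ± 0.09, adjusted p = 0.702), and the list's median was 0.02.

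The list of growth factors of the lineage also held the receptors Csf2ra, Csf2rb and Csf3r and the ligands Bmp2, Gdf2 and Dll4. This list gave 1 call of 9 tested at 8 mg/kg, beside 4.09% of all features. The call was that of Flt3l, the ligand that drives dendritic cell development (-0.42 ± 0.10, limma adjusted p = 0.036). That call was kept in 13 of 28 alternatives and was lost without slide 3 (-0.32, adjusted p = 0.139). The ligands of Csf1r, chosen after their values were seen, read -0.05 ± 0.11 for Csf1 and 0.0045 ± 0.09 for Il34 at 8 mg/kg. The list's median was 0.0045 at 8 mg/kg and 0.08 at 1 mg/kg, where none passed. Between the doses Bmp2, an iron-regulating ligand of sinusoidal endothelium, fell (-0.53 ± 0.14, limma adjusted p = 0.0478), a call kept in 8 of 28 alternatives and lost without slide 3 (-0.57, adjusted p = 0.0803). The 15 transcription factors of macrophages gave no call against control at either dose (medians 0.02 at both), and Id3, in this list as well, was the single gene of the 15 that passed between the doses.

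Markers of cells that could bring macrophage genes into a liver sample were set beside these results. Over all features 4.09% passed at 8 mg/kg, 0% at 1 mg/kg and 5.28% between the doses. Of 11 monocyte genes, 8 were tested and none passed in any comparison, with medians of 0.06 at 8 mg/kg and 0.03 at 1 mg/kg. Fn1, Vcan and Ms4a4c were additions to the planned monocyte markers. Fn1 had the largest estimate at each dose (0.26 at 8 and 0.27 at 1 mg/kg), and which cells made it was not tested. The mean log2 level of the 8 tested genes, Fn1 included, was taken with slide effects removed and relative to the control mean. It ran from -0.03 to 0.02 in controls, 0.02 to 0.16 at 1 mg/kg and -0.02 to 0.09 at 8 mg/kg. On the same scale the 9 macrophage markers ran from -0.095 to 0.10 in controls, 0.08 to 0.45 at 1 mg/kg and 0.03 to 0.24 at 8 mg/kg. For both lists the highest mouse at 1 mg/kg was replicate 5, on slide 4, and the lowest control was that of the same slide. The defining monocyte genes Ccr2 and F13a1 did not pass the filter on dim probes, and Ly6c2 was not matched. Of 9 neutrophil genes, 4 were tested and none passed (medians 0.01 at 8 mg/kg and 0.02 at 1 mg/kg; levels -0.18 to 0.14, -0.09 to 0.215 and -0.07 to 0.15 in controls, 1 mg/kg and 8 mg/kg). None of the 6 dendritic, 7 T and NK or 4 B cell genes tested passed in any comparison; their medians at 8 mg/kg were 0.04, -0.08 and -0.13, and at 1 mg/kg 0.0023, 0.04 and -0.04.

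Markers of other resident liver cells also had medians above 0 at 1 mg/kg, a dose at which 60.4% of all features were above 0. The levels of 8 genes of sinusoidal endothelium ran from 0.04 to 0.32 at 1 mg/kg, against -0.09 to 0.13 in controls and -0.12 to 0.04 at 8 mg/kg. Those of 7 stellate cell genes ran from -0.0022 to 0.42, against -0.21 to 0.12 and -0.08 to 0.03. The levels of 6 hepatocyte genes ran from 0.0018 to 0.175, against -0.07 to 0.08 and -0.14 to 0.13. A single mouse, 1 mg/kg replicate 5 on slide 4, set the upper end at 1 mg/kg for endothelium and stellate cells. For hepatocytes it read 0.12, and replicate 2 on slide 5 was the highest. The control of slide 4 was the lowest control for each of these lists. The median differences at 1 mg/kg were 0.115 for endothelium, 0.21 for stellate cells and 0.09 for hepatocytes, and at 8 mg/kg -0.08, -0.05 and -0.02. None of these genes passed against control; between the doses Lrat, which stores retinol as ester in stellate cells, fell (-0.64 ± 0.15, limma adjusted p = 0.0291), though not without slide 3 (-0.57, adjusted p = 0.0762). The part of these cells in the values of the macrophage markers was not tested.

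**Figure D4:**
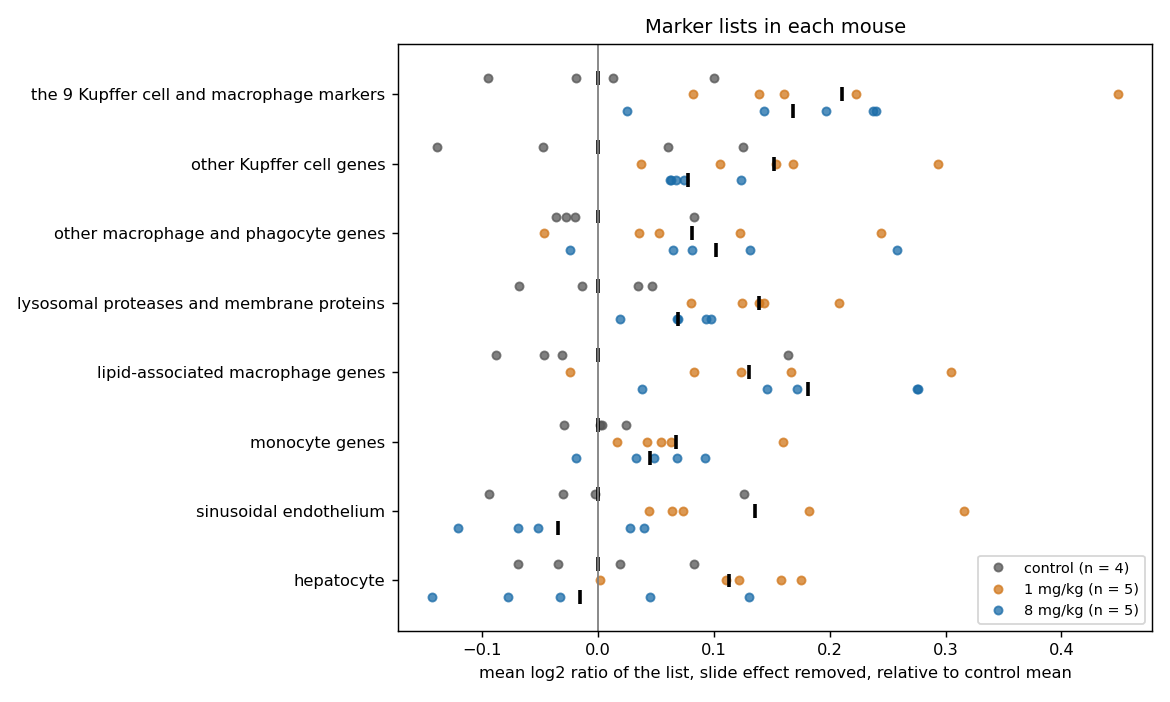
Mean log2 ratio of the tested genes of each list in each mouse (horizontal axis), with slide effects removed and relative to the control mean; points are mice (4 controls in grey, 5 at 1 mg/kg in orange, 5 at 8 mg/kg in blue) and black ticks are group means. The 9 macrophage markers run from 0.08 to 0.45 at 1 mg/kg and 0.03 to 0.24 at 8 mg/kg, while endothelial genes lie at 0.04 to 0.32 at 1 mg/kg and -0.12 to 0.04 at 8 mg/kg. For both lists the highest 1 mg/kg point is replicate 5, of slide 4.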

How the data were processed

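Liver RNA of 14 mice was hybridised against a universal reference on 14 Agilent arrays on 5 slides. The deposited scanner files hold spot and background intensities of both channels, read with Feature Extraction 10.7.3.1 per the file headers. A table of ratios that the authors deposited was found to be linear, liver over reference: its log2 values correlated at 0.992 to 0.995 with those computed here, in the Cy5 over Cy3 direction, and its column medians were 0.9765 to 0.9897. Its normalization is unknown here, so it served only as an alternative.

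Median intensities were corrected with normexp (offset 50) in limma 3.58.1 (R 4.3.3) and normalized by loess within arrays, leaving out control spots and spots with outlier flags. Probe accessions were matched to the RefSeq table of GRCm38.p6, which named 26413 of 55681 probes. A probe was tested if well above background in the liver channel on at least 4 of 14 arrays (28867 probes), with at most 2 arrays missing. The brightest probe stood for a gene. Per array, 41.4% to 53.6% of probes were above background. What sets the precision was not tested.

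Groups came from the sample labels, which call the mice biological replicates. limma's lmFit and eBayes were run on all 14 arrays with slide as a fixed block, adjusted by Benjamini-Hochberg with a threshold of 0.05. The fit was checked on simulated data. The markers and gene lists were chosen with earlier results of these data known, so lists are described by counts and medians without a test. All markers are named; from other lists, genes that passed, and at most the gene with the smallest p at each dose, are named. Genes of like pattern are the 6 with the highest r. Tables and figures used data.table (version 1.17.8), Python 3.11.15 and matplotlib 3.10.9.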

Additional observations from a re-analysis of the deposited data

Results flagged for a closer look

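A single mouse lay far above the others of its group for 3 resident markers. Among the 5 mice at 8 mg/kg, replicate 2, on slide 3, read 6.928 for Clec4f (next highest 6.038), 2.593 for Timd4 (next 1.887) and 7.455 for Cd5l (next 6.503). In each case the gap to the nearest mouse, as a share of the range of the group, exceeded Dixon's critical value of 0.71 for 5 samples. The control and the 1 mg/kg mouse of the same slide were also the highest of their groups for these genes. Of 27 sets of a gene and a dose group, 3 exceeded their critical value. All 3 are the same mouse in genes that varied together, so they are not separate events and are not set against a chance rate. The ratios tested still held the slide effect. With it removed, that mouse read 6.121 for Clec4f and 6.745 for Cd5l, below the highest of its group (6.274 and 6.775). For Timd4 it read 2.048, still the highest, with 2.01 next.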

How the results depend on the processing

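The counts of calls, the medians of the markers, the difference of each marker and those of the other named genes were recomputed under 28 alternatives, 14 of which left out an array. Not all are separate checks. Loess followed by Aquantile leaves the ratios unchanged and repeated the main fit (898 features passing at 8 mg/kg). Leaving out either mouse of slide 5 gave the same fit (563 passing at 8 mg/kg). The call of Ctss at 8 mg/kg was lost in 23 of them. The number of markers passing against control fell from 1 to 0 with no background correction, the scanner's processed signals, the authors' deposited ratios, no slide block, slide as a random block, slide 3 left out, only the arrays of the groups compared, or no filter on dim probes, and ran from 0 to 2 when an array was left out. With the liver channel alone it was 1, Marco in place of Ctss. Between the doses 1 marker, Marco, passed with the liver channel alone, and 0 to 1 with an array left out; at 1 mg/kg the count stayed at 0. The median of the markers at 8 mg/kg ran from 0.0799 to 0.221 with an array left out, and was 0.0665 with no slide block and 0.0692 with the replicate block. At 1 mg/kg it was 0.0583 with processed signals and ran from 0.0651 (without 1 mg/kg replicate 5) to 0.293. Between the doses it was -0.0106 with the liver channel alone and ran from -0.161 to -0.0325. No called result reversed. Of 756 values of single markers, 686 kept direction and side of the threshold, 41 not passing changed sign, 23 lost the call and 6 gained it; of 1648 values of other genes, 1404, 23, 218 and 3 did so. The count of all features passing at 8 mg/kg, 898, was 290 (238 higher) with processed signals, 273 with no slide block, 401 without slide 3, 304 with only the groups compared, 641 with the authors' ratios, 1329 (694 higher) with the liver channel alone, and 315 to 871 with an array left out. Between the doses, 1161 became 263 (218 higher) with processed signals, 297 with no slide block and 419 to 1254 with an array left out, and at 1 mg/kg 0 to 3 features passed. With the labels' replicate number as a block in place of the slide, 122 features passed at 8 mg/kg and 150 between the doses, 0 markers passed, and the median of the markers at 1 mg/kg was 0.14. Correlations between mice of the same number ran from -0.389 to 0.25 at 8 mg/kg against control. They ran from -0.447 to 0.313 at 1 mg/kg against control and from -0.449 to 0.248 between the doses. Slide effects were left in, and the pairs that shared a slide were all positive. The correlations therefore cannot decide whether the numbers pair mice, and the numbers were not taken to do so. The cause of these changes was not tested. The median standard error over all features was 0.0992 at 8 mg/kg against control. Differences as small as those of Clec4f, Vsig4, Timd4 and Cd5l were therefore not resolved. Liver signal of the 9 markers cleared the background criterion on all 14 arrays. Whether reference signal did so was not tested, nor was the part of either signal in the precision of the ratios.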
